A study of Mus musculus with 4 samples.

Results

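The cells described here come from the mouse liver and were picked out of 4 droplet single-cell RNA sequencing libraries by a rule meant for monocytes and conventional dendritic cells, which read unique molecular identifiers (UMIs, each standing for 1 captured RNA molecule). A cell was taken as a member when at least 3 of 11 marker genes (*Csf1r*, *Ccr2*, *Plbd1*, *Cst3*, *Cd209a*, *Flt3*, *Itgax*, *Clec10a*, *Xcr1*, *Fscn1* and *Ccl22*) were detected and when it held fewer than 5 UMIs of the complement C1q genes of resident macrophages, fewer than 10 of the neutrophil genes *S100a8* and *S100a9*, none of the T cell genes *Cd3d*, *Cd3e* and *Cd3g*, at most 2 of the B cell genes *Cd79a*, *Cd79b* and *Ms4a1*, and none of *Siglech* of plasmacytoid dendritic cells. The rule found 220 members among 9300 cells, of which 150 were monocyte or dendritic-like by their clusters and 70 were not. The members were thus chosen by measured UMIs of the genes just named, and the levels of these genes in members are given as a description only.

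The study asked how ligands of the aryl hydrocarbon receptor (AhR) alter hepatitis caused by concanavalin A (ConA), a plant lectin that activates T cells. Liver mononuclear cells of C57BL/6 mice aged 8 to 10 weeks were enriched on a Percoll gradient and sequenced from untreated mice (Naïve) or 24 h after ConA from mice that then received vehicle (ConA+Veh), 2,3,7,8-tetrachlorodibenzo-p-dioxin (ConA+TCDD), a long-lived AhR ligand, or 6-formylindolo[3,2-b]carbazole (ConA+FICZ), an AhR ligand that cells break down quickly. The labels name no engineered allele in any group. Each group is 1 library, and the number of mice behind a library is not given in the sources used here. No difference between groups could therefore be tested; the 95% intervals below cover counting error only and leave out the spread between animals.

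The libraries held 2086 cells (Naïve), 2779 cells (ConA+Veh), 1880 cells (ConA+TCDD) and 2555 cells (ConA+FICZ), with 5952445, 19252211, 12077209 and 16017797 UMIs. Members numbered 71, 59, 41 and 49 in the same order and held 335161, 533419, 667133 and 395282 UMIs. Depth differed between the groups of members, with a median of 3199 UMIs per member in Naïve, 5547 in ConA+Veh, 14033 in ConA+TCDD and 5004 in ConA+FICZ. Between 4 and 15 cell barcodes occurred in both libraries of a pair, and none of these was a member in both. Of the members, 22, 32, 28 and 31 held exactly 3 of the 11 markers and were just inside the rule, and 41, 89, 59 and 81 further cells met every other condition with 2 markers and were just outside it.

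Classical monocytes leave the bone marrow, enter inflamed tissue through the chemokine receptor CCR2 and can become macrophages there, whereas patrolling monocytes depend on the nuclear receptor NR4A1 and stay along vessel walls. Conventional dendritic cells take up antigen and present it on MHC class II; type 1 cells (cDC1), which carry the receptor XCR1, cross-present antigen to CD8 T cells, and type 2 cells (cDC2) mainly serve CD4 T cells. A dendritic cell that has matured carries CCR7, the receptor that guides it to lymph nodes. In the liver these cells lie beside Kupffer cells, the resident macrophages, and in ConA hepatitis they meet interferon-gamma from activated T and NKT cells.

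To see what the rule had collected, the members of the 4 libraries were clustered together and each of 6 clusters was set against lists of cell type markers. A marker counted where at least 10% of the cluster's cells held it and its level was at least 2 times that of the other members. In 4 of the 6 clusters a list of monocyte or dendritic markers counted the most genes. Cluster 0 (50 cells) and cluster 2 (41 cells) were monocyte-like. The leading genes of cluster 0 included *Fcgr4*, a receptor for IgG, and *Hmox1*, heme oxygenase, and counted 5 of the 10 classical monocyte markers. Cluster 2 was led by *Lyz2*, lysozyme, with *Fn1*, fibronectin, and *Apoe*, and counted 7 of the 10 patrolling and 5 of the 10 classical markers. Cluster 3 (40 cells) was conventional dendritic-like, with 10 of 10 cDC1 markers and 5 of 10 cDC2 markers, and cluster 5 (19 cells) was mature dendritic-like, with 10 of 10 markers. These lists hold genes of the rule, some of which each member had to show: *Cd209a*, *Clec10a*, *Flt3* and *Itgax* among the counted cDC2 markers, *Xcr1* among those of cDC1, *Fscn1* and *Ccl22* among those of mature dendritic cells, and *Csf1r* and *Ccr2* among the classical monocyte markers of cluster 2. At a finer resolution the cells of cluster 3 fell into 25 cells led by the cDC1 genes *Xcr1* and *Clec9a* and 15 cells of a cluster of 24, led by *Scimp*, *Clec10a* and MHC class II genes. That cluster also took 7 of the 50 cells of cluster 0 (2 of ConA+Veh, 3 of ConA+TCDD and 2 of ConA+FICZ) and 2 cells of the progenitor-like cluster. The other cells of cluster 0 fell into 30 cells whose leading genes included *Ccl2* and *Hmox1* and 13 cells led by *Ly6i*, *Ear2* and *Cd300e*, genes that include patrolling monocyte markers.

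**Figure D1:**
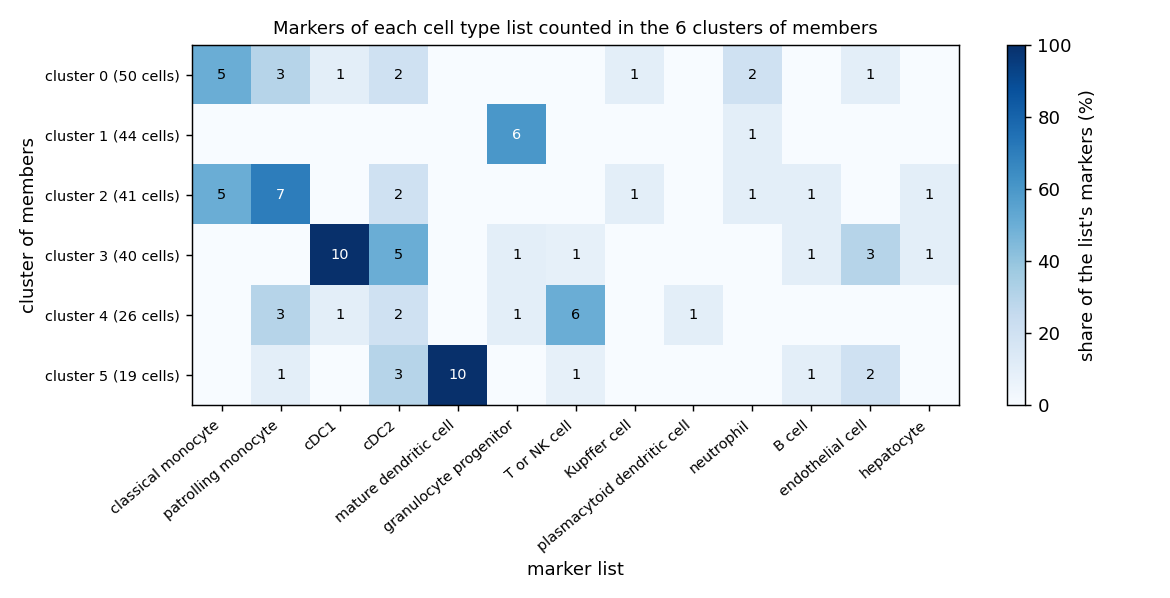
Each row is 1 of the 6 clusters of members and each column a list of cell type markers, and the number in a cell counts the markers that reached at least 10% of the cluster's cells and at least 2 times the level in other members, with the shade giving that count as a percent of the list. Clusters 0 and 2 stand out for monocyte lists, cluster 3 for cDC1 and cDC2, cluster 5 for mature dendritic cells, cluster 1 for granulocyte progenitors (6 markers) and cluster 4 for T or NK cells (6 markers).

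The label of monocytes and conventional dendritic cells did not hold for all members. Cluster 1 (44 cells) was granulocyte progenitor-like, led by *Ctsg*, *Prtn3*, *Elane* and *Mpo*, the proteases and peroxidase of early neutrophil granules, with a median of 21882 UMIs per cell, and cluster 4 (26 cells) was T or NK-like, led by the cytotoxic granule genes *Gzma*, *Gzmb* and *Prf1*. Together these 70 cells were spread unevenly over the libraries. The progenitor-like cluster took 1 member in Naïve, 14 in ConA+Veh, 19 in ConA+TCDD and 10 in ConA+FICZ, and the T or NK-like cluster took 3, 9, 10 and 4. The remaining 150 cells, called monocyte or dendritic-like below, made up 94.4%, 61.0%, 29.3% and 71.4% of the members. Kupffer cells were not among the members by their defining genes, since *Clec4f*, *Vsig4* and *Timd4* had 0 UMIs in every library and the whole list of 10 Kupffer genes summed to 17 UMIs in Naïve, 1 in ConA+Veh, 1 in ConA+TCDD and 6 in ConA+FICZ, most of them *Adgre1*. Marker lists of the other lineages were summed over all members in the same order of libraries. The granulocyte progenitor list had 90, 1033, 2624 and 899 UMIs, with *Prtn3* its most abundant gene, and the T or NK list 346, 3074, 2515 and 1078. The neutrophil list had 32, 56, 91 and 102 UMIs, the B cell list 47, 48, 40 and 39, the plasmacytoid dendritic list 196, 521, 596 and 371 (most of them *Bst2*, which interferon also induces), the endothelial list 154, 135, 58 and 50, the hepatocyte list 47, 10, 5 and 51, the erythroid list 3, 48, 51 and 13 and the basophil list 3, 5, 7 and 16. In what follows, levels are given within the named clusters, and values over all members are given where the mixture itself matters.

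The clusters were unevenly shared. Monocyte-like members numbered 47 in Naïve, 14 in ConA+Veh, 4 in ConA+TCDD and 26 in ConA+FICZ. Of the Naïve cells 40 lay in cluster 2 and 7 in cluster 0, while all 14 of ConA+Veh, all 4 of ConA+TCDD and 25 of the 26 of ConA+FICZ lay in cluster 0. Cluster 2 was thus almost a single library, and whether it is a cell type or a trait of that library cannot be told apart here. Conventional dendritic-like members numbered 19, 10, 4 and 7. Mature dendritic-like members numbered 1, 12, 4 and 2.

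**Figure D2:**
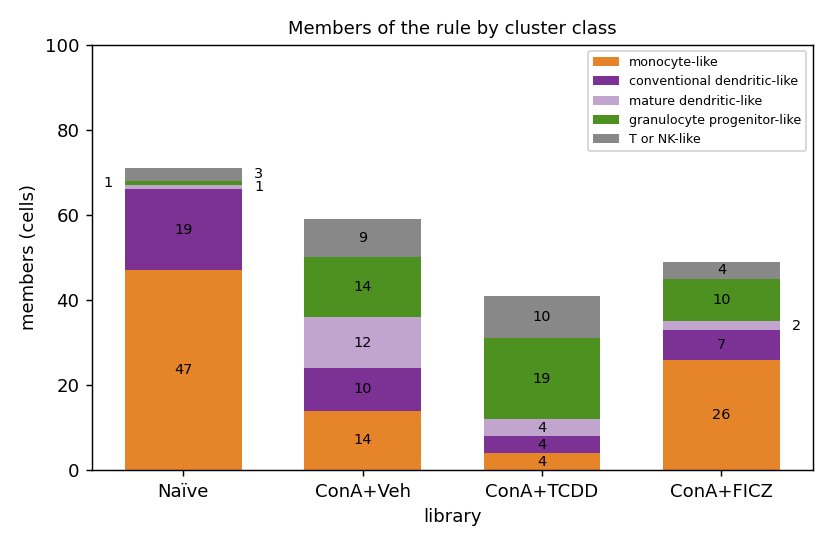
Stacked bars give the number of members (cells) of each cluster class in the 4 libraries. Monocyte-like cells fill most of the Naïve bar (47 of 71), and granulocyte progenitor-like cells are the largest class in ConA+TCDD (19 of 41).

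As a share of all cells, members made up 3.40% of Naïve (2.67% to 4.27%, exact Clopper-Pearson interval), 2.12% of ConA+Veh (1.62% to 2.73%), 2.18% of ConA+TCDD (1.57% to 2.95%) and 1.92% of ConA+FICZ (1.42% to 2.53%). Set against Naïve, ConA+Veh had a log2 ratio of shares of -0.68 (-1.20 to -0.16), and the other 3 ratios were nearer to 0, with 0.04 (-0.57 to 0.64) for TCDD against vehicle, -0.15 (-0.72 to 0.42) for FICZ against vehicle and -0.19 (-0.81 to 0.45) for FICZ against TCDD. The ratio of ConA+Veh to Naïve depended on the marker threshold, and was -0.012 with 2 or more of the 11 markers and -1.27 with 4 or more. The rule read cells at their full depth, and the median over all cells of a library was 2161, 3984, 3761.5 and 3147 UMIs. The part of depth in who became a member was not tested. When the progenitor-like and T or NK-like cells were left out, the order of the libraries was different. Monocyte or dendritic-like members then made up 3.21%, 1.30%, 0.638% and 1.37% of the 4 libraries, so that ConA+TCDD was lowest. On the log2 scale ConA+Veh differed from Naïve by -1.31 (-1.94 to -0.70), ConA+TCDD from ConA+Veh by -1.02 (-2.10 to -0.05) and ConA+FICZ from ConA+TCDD by 1.10 (0.12 to 2.18). These shares were read from clusters whose own genes differed between the libraries, and they are a description.

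The C1q condition of the rule also set the shares. It alone left out 11 cells in Naïve, 82 in ConA+Veh, 17 in ConA+TCDD and 100 in ConA+FICZ, cells that met all other conditions. With these cells taken in, the shares were 3.93%, 5.07%, 3.09% and 5.83%, and the ratio of ConA+Veh over Naïve turned from -0.68 to 0.37 on the log2 scale. The lower share of members after ConA was therefore a statement about cells with few C1q UMIs. Few cells lay near the limit, with 0, 0, 1 and 5 members at 3 or 4 C1q UMIs and 1, 2, 4 and 8 cells left out at 5 to 9.

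**Figure D3:**
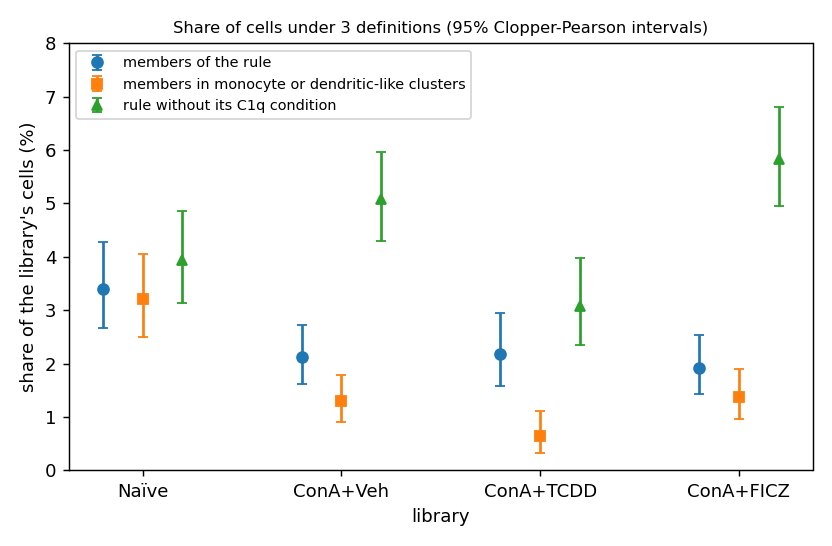
Points give the share of each library's cells (%) for members, for members in monocyte or dendritic-like clusters, and for the rule without its C1q condition, with 95% Clopper-Pearson bars. The first 2 are highest in Naïve, whereas without the C1q condition ConA+FICZ (5.83%) and ConA+Veh (5.07%) are highest.

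Levels are given as CPM, the UMIs of a gene summed over the cells of a class in 1 library per 1000000 UMIs of those cells, and a log2 ratio compares the CPM of 2 libraries. Among monocyte-like members, *Lyz2*, *Fn1* and *Apoe* were higher in Naïve than in ConA+Veh, while the lists of phagocyte genes showed no common direction. Of 726 genes with at least 50 UMIs in both libraries together, 12.0% were at least 2-fold higher in ConA+Veh and 13.9% lower. The lysozyme and lysosome list had 1 of 13 counted genes higher and 1 lower (median 0.16), and the Fc and pattern receptors 2 of 9 higher and 2 lower (median -0.30). *Lyz2*, the lysozyme of phagocytes (GRCm38 chromosome 10, 117277541 to 117282272), was at 19485 CPM in Naïve, 1923 in ConA+Veh, 1808 in ConA+TCDD and 3510 in ConA+FICZ. Naïve was above the other 3, and the log2 ratio of ConA+Veh over Naïve was -3.34 (-3.59 to -3.10). *Fn1*, fibronectin, a protein of the extracellular matrix (chromosome 1, 71585473 to 71653280), was at 1380, 40.6, 74 and 476 CPM. Its ratio of ConA+Veh over Naïve was -5.09 (-7.37 to -3.52). *Apoe*, a lipid carrier, was at 1734, 230, 221 and 866 CPM. These genes also lead cluster 2, which is why the Naïve cells of cluster 0 were read apart. In them *Lyz2* was at 3988 CPM against 1923 in ConA+Veh, a log2 ratio of -1.05 (-1.39 to -0.71), and *Fn1* at 952 CPM came from 37 UMIs of which 36 were in a single cell. In ConA+Veh 89 *Lyz2* UMIs were in 2 cells that joined the *Clec10a* and MHC class II cluster at the finer resolution. Without them *Lyz2* was at 1138 CPM, and its ratio to all Naïve monocyte-like cells was -4.10 (-4.52 to -3.71).

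In the monocyte-like members, 4 of 7 counted MHC class II genes were at least 2-fold higher in ConA+Veh than in Naïve and 0 lower (median 1.41). Without 2 ConA+Veh cells described below, *Cd74*, *H2-Ab1* and *H2-Eb1* were under 2-fold, at 0.47, 0.85 (0.42 to 1.26) and 0.61 (0.03 to 1.16). *H2-Aa* stayed above 2-fold, at 1.19. Of the interferon-gamma response 2 of 7 counted genes were higher and 0 lower (median 0.88), and of the type I interferon-stimulated genes 3 of 6 and 0 (median 0.97). *Ly6a*, a surface protein induced by interferon (chromosome 15, 74994877 to 74998031), was at 466 CPM in Naïve, 4794 in ConA+Veh, 3838 in ConA+TCDD and 2302 in ConA+FICZ, so that the 3 ConA libraries were all above Naïve. The log2 ratio of ConA+Veh over Naïve was 3.36 (3.01 to 3.73), and within cluster 0 it was 1.35 (0.98 to 1.74). *Cd74*, the invariant chain that escorts MHC class II, was at 3380, 9980, 10665 and 4503 CPM, and *H2-Aa*, an MHC class II chain (chromosome 17, 34282744 to 34287823), was at 614, 2668, 1624 and 752 CPM. For *H2-Aa*, ConA+Veh against Naïve gave 2.12 (1.77 to 2.48) on the log2 scale, and 2.61 (1.89 to 3.42) within cluster 0. These values rest partly on cells that joined the *Clec10a* and MHC class II cluster at the finer resolution. In ConA+Veh 2 such cells held 519 of the 737 UMIs of *Cd74*, and without them *Cd74* was at 4683 CPM and its ratio to Naïve was 0.47 (0.24 to 0.70) in place of 1.56, while *H2-Aa* was at 1396 CPM, a ratio of 1.19 (0.72 to 1.65), and *Ly6a* at 3716 CPM, a ratio of 2.995 (2.60 to 3.40). In ConA+TCDD 3 of the 4 monocyte-like cells were of this kind and held all UMIs of *Cd74*, *H2-Aa* and *Ly6a*. *Il1b*, the precursor of interleukin-1 beta, was at 472, 1720, 1402 and 275 CPM. ConA+FICZ was thus lowest for *Il1b*. *Fcgr4* was at 88.5, 501, 185 and 570 CPM. *Isg15*, a ubiquitin-like protein induced by interferon, was at 472 CPM in Naïve, 1219 in ConA+Veh, 886 in ConA+TCDD and 1590 in ConA+FICZ, but the Naïve cells of cluster 0 held it at 1312 CPM, and within that cluster the ratio of ConA+Veh over Naïve was -0.11 (-0.62 to 0.42). In ConA+TCDD the 3 cells of the finer *Clec10a* and MHC class II cluster held 36 UMIs of *Il1b*, 23 of *Isg15* and 45 of *Lyz2*. The remaining monocyte-like cell held 2, 1 and 4.

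Genes of the immediate early response, which cells switch on within minutes of a stimulus or of handling, went the other way. *Fos*, a subunit of the factor AP-1, was at 2118 CPM in monocyte-like members of Naïve, 650 in ConA+Veh, 332 in ConA+TCDD and 631 in ConA+FICZ. *Jun*, its partner, was at 1056, 94.8, 111 and 315 CPM. *Nr4a1*, which patrolling monocytes require, was at 1628, 257, 221 and 161 CPM, and ConA+Veh stood at -2.66 (-3.42 to -1.99) against Naïve. Within cluster 0 this held for *Nr4a1*, at -1.96 (-2.84 to -1.14), but not for *Fos*, whose 412 CPM in the 7 Naïve cells compared with 650 in ConA+Veh, a ratio of 0.66 (-0.18 to 1.57). The 7 cells held only 16 UMIs of *Fos*.

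**Figure D4:**
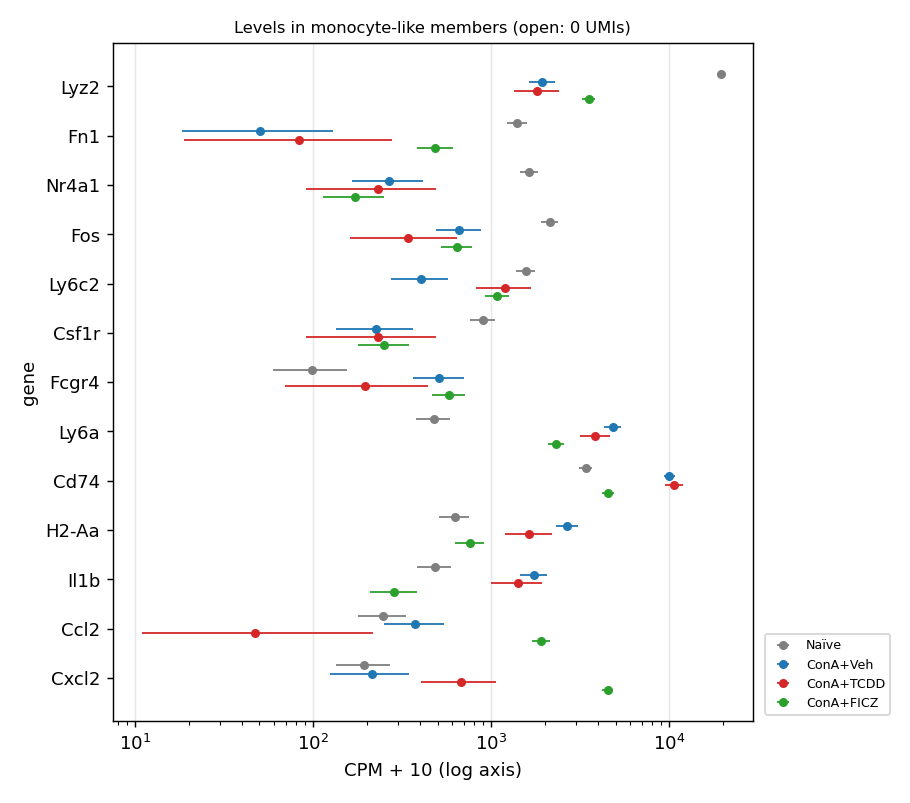
Points give the level in monocyte-like members as CPM with 10 added on a log axis, 1 colour per library, with 95% Poisson bars that cover counting error only (open point, 0 UMIs). *Lyz2*, *Fn1*, *Nr4a1* and *Fos* are highest in Naïve, *Ly6a*, *Cd74* and *H2-Aa* in ConA+Veh or ConA+TCDD, and *Ccl2* and *Cxcl2* in ConA+FICZ. In ConA+TCDD all UMIs of *Ly6a*, *Cd74* and *H2-Aa* were in 3 cells that joined the *Clec10a* and MHC class II cluster at the finer resolution. In ConA+Veh 2 such cells held 519 UMIs of *Cd74*, against 218 in the other 12.

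The same was read over lists of genes in the monocyte or dendritic-like members together. Of 1521 genes with at least 50 UMIs in Naïve and ConA+Veh together, 10.3% were at least 2-fold higher in ConA+Veh and 10.6% at least 2-fold lower, with a median log2 ratio of 0.08. Among the immediate early genes, 14 of 14 reached 50 UMIs; 11 were at least 2-fold lower and 0 higher, with a median of -1.57. *Klf6*, at 0.36, was the exception among them with a positive ratio. Of 22 genes of the interferon-gamma response 8 could be counted, of which 6 were at least 2-fold higher and 0 lower, with a median of 1.25. They included *Psmb9* and *Psmb8*, subunits of the immunoproteasome, at 1.69 (1.30 to 2.08) and 1.19 (0.95 to 1.42), and *Gbp2*, a guanylate-binding protein induced by interferon, at 334 CPM in ConA+Veh against 118 in Naïve. Of 16 type I interferon-stimulated genes 11 could be counted, of which 6 were higher and 0 lower, with a median of 1.06. The MHC class II list had 2 of 7 counted genes higher and 0 lower (median 0.47), these being *H2-Aa* at 1.21 and *H2-Eb1* at 1.11. *Chil3*, a chitinase-like protein of monocytes, *Fn1* and *Thbs1*, thrombospondin, were the 3 of 5 counted polarization and repair genes that were lower. The 67 Naïve and 36 ConA+Veh cells differ in their make-up of clusters, and its part in these counts was not tested.

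*Isg15* stands on chromosome 4 (156199424 to 156200818), *Ifit1*, an RNA-binding antiviral protein, on chromosome 19 (34640889 to 34650009) and *Bst2*, tetherin, on chromosome 8 (71534255 to 71537472). Their promoters are shown because these 3 genes were higher in ConA+Veh than in Naïve over the monocyte or dendritic-like members (ratios of 2.15, 4.44 and 1.40, where 39 of the 52 *Ifit1* UMIs of ConA+Veh were in 1 cell) and because interferon acts through a short element, here searched as GAAA, any 2 bases and GAAA again on both strands, where overlapping matches were each counted. The sequences run 5′ to 3′ on the strand of the gene, from 250 bases before to 50 bases after its start in RefSeq (GRCm38.p6), and capitals mark the bases covered by a match. The windows are chr4:156200769-156201068 on the minus strand, chr19:34640639-34640938 on the plus strand and chr8:71537423-71537722 on the minus strand.
Isg15: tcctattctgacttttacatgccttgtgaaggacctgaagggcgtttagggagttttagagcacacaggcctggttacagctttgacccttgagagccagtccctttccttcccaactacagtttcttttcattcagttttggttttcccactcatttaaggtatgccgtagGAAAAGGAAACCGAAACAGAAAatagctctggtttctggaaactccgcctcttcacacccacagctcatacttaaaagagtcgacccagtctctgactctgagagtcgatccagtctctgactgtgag
Ifit1: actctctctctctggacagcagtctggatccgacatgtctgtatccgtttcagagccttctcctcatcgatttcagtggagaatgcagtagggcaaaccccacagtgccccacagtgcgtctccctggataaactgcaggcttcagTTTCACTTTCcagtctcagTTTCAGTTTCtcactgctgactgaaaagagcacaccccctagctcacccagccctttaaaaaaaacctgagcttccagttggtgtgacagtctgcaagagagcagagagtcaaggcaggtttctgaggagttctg
Bst2: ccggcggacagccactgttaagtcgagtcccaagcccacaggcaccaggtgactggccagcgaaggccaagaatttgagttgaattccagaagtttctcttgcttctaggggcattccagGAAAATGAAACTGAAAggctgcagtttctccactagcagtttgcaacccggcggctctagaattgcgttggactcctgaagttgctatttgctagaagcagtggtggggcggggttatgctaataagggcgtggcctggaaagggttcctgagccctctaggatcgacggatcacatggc
The element was found 3 times for *Isg15*, 2 times for *Ifit1* (on the opposite strand, read as TTTC, any 2 bases and TTTC) and 2 times for *Bst2*. It was in 943 of 27025 promoters (3.49%) of this length, and in 7 of the 12 promoters found for the 16 type I interferon-stimulated genes. A match describes the letters and does not show binding.

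FICZ after ConA was compared with vehicle after ConA in the monocyte-like members, which lay in cluster 0 but for 1 cell. Of 708 genes with at least 50 UMIs, 8.76% were at least 2-fold higher in ConA+FICZ and 3.81% lower. Of 7 counted chemokines 5 were at least 2-fold higher in ConA+FICZ and 1 lower, *Cxcl9*, a chemokine for T cells, with 37 UMIs in ConA+Veh and 22 in ConA+FICZ. *Cxcl2*, a chemokine for neutrophils (chromosome 5, 90903899 to 90905938), was at 183 CPM in Naïve, 203 in ConA+Veh, 664 in ConA+TCDD and 4489 in ConA+FICZ. All 18 *Cxcl2* UMIs of ConA+TCDD were in 1 cell. In ConA+FICZ 19 of 26 cells held *Cxcl2*, and the log2 ratio of ConA+FICZ over ConA+Veh was 4.47 (3.73 to 5.31). *Ccl2*, the ligand of CCR2 that draws monocytes, was at 236, 366, 36.9 and 1899 CPM, with a ratio of 2.38 (1.81 to 3.004). Of its 283 UMIs in ConA+FICZ 137 were in 1 cell. *Ccl7*, another ligand of CCR2 (chromosome 11, 82045712 to 82047525), had 2, 0, 0 and 104 UMIs, of which 93 were in 1 cell of ConA+FICZ, and *Cxcl3* had 0, 0, 0 and 59 UMIs. ConA+FICZ over ConA+Veh was at least 9.75-fold higher for *Cxcl3* when the absent gene was given 3 counts.

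*Nos2*, the inducible nitric oxide synthase, had 23 UMIs in 5 cells of ConA+FICZ and 0 in the other libraries. *Chil3* was at 1292, 230, 0 and 1879 CPM, *F13a1*, a clotting factor of monocytes, was at 867, 190, 111 and 805 CPM, and *Cd14*, the co-receptor for endotoxin, was at 176 CPM in ConA+Veh and 725 in ConA+FICZ. *Ly6c2*, the Ly6C of classical monocytes, was at 1557, 393, 1181 and 1067 CPM. Against these, *Il1b*, *H2-Aa* and *Cd74* were lower in ConA+FICZ than in ConA+Veh, with log2 ratios of -2.64 (-3.19 to -2.13), -1.83 (-2.18 to -1.49) and -1.15 (-1.30 to -0.995). Without the 2 cells of each library that joined the *Clec10a* and MHC class II cluster, the ratio of *Cd74* was -0.56 (-0.80 to -0.32), that of *H2-Aa* -1.58 (-2.11 to -1.05), that of *Il1b* -2.75 (-3.32 to -2.21) and that of *Cxcl2* 4.09 (3.33 to 4.97). *Isg15* differed less, with a ratio of 0.38 (0.03 to 0.75). *Csf1r*, the receptor for macrophage growth factor and a gene of the rule, was at 891, 217, 221 and 242 CPM.

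In the monocyte or dendritic-like members together, 11.3% of 1259 genes were at least 2-fold higher in ConA+FICZ than in ConA+Veh and 7.23% lower, with a median of 0.04. All 4 counted polarization and repair genes (of 12) were higher, with a median of 3.70, and *Fn1* stood at 4.93, *Chil3* at 4.33 and *Hmox1* at 1.88. Of the Fc and pattern receptors 11 of 14 could be counted, and 7 were higher and 0 lower (median 1.81), among them *Fcgr1*, *Fcgr2b* and *Fcgr3*, receptors for IgG, at 2.33, 2.16 and 1.81, and *Itgam*, CD11b, at 2.22. Of 14 counted lysosome genes 7 were higher and 0 lower, with *Ctsl*, cathepsin L, at 4.11 and *Ctsd*, cathepsin D, at 2.42. Of 9 counted glycolysis genes 5 were higher and 0 lower (median 1.17), with *Pkm*, pyruvate kinase, at 1.17 and *Slc2a1*, the glucose transporter GLUT1, at 1.61. MHC class II had 4 of 7 lower and 0 higher (median -1.30). Of 10 counted chemokines 5 were higher and 3 lower, the lower ones being *Ccl5* at -2.47, *Cxcl10* at -1.52 and *Cxcl16* at -1.28. The make-up differed here as well, with 26 monocyte-like cells among 35 in ConA+FICZ and 14 among 36 in ConA+Veh, and 12 mature dendritic-like cells in ConA+Veh against 2. In monocyte-like members alone the polarization list had 3 of 4 counted genes higher, the Fc and pattern receptors had 3 of 10, lysosome 2 of 14 and glycolysis 1 of 8, while MHC class II had 4 of 7 lower.

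The values of ConA+TCDD rest on 12 monocyte or dendritic-like members, of which 4 were monocyte-like, 4 conventional dendritic-like and 4 mature dendritic-like. Of 919 genes 1.74% were at least 2-fold higher than in ConA+Veh and 4.57% lower. Of 7 counted type I interferon-stimulated genes 0 were at least 2-fold higher and 1 lower, *Ifit1*, with 52 UMIs in ConA+Veh, 39 of them in 1 cell, and 3 in ConA+TCDD. *Ly6a* was at 3166 CPM in ConA+Veh and 3185 in ConA+TCDD, a ratio of 0.01 (-0.20 to 0.21), and *Isg15* at 1431 and 1220 CPM, a ratio of -0.23 (-0.56 to 0.09). *Zbp1*, a sensor of nucleic acids, was at 282 and 465 CPM, a ratio of 0.72 (0.12 to 1.31). *H2-Aa* was at 7104 and 4626 CPM, a ratio of -0.62 (-0.78 to -0.46), and none of the 8 counted MHC class II genes passed 2-fold (median -0.24). *Cd83*, which marks maturing dendritic cells, was at 265 CPM in ConA+Veh and 81.4 in ConA+TCDD, a ratio of -1.70 (-3.07 to -0.57). *Hspa1a*, a heat shock protein, had 58 UMIs with vehicle and 1 with TCDD. The heat shock list as a whole had 1 of 6 counted genes lower and 0 higher.

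FICZ was set against TCDD in the same cells, 35 against 12, of which 26 and 4 were monocyte-like. Over all members 7.12% of 2978 genes were at least 2-fold higher in ConA+FICZ and 2.48% lower. In the monocyte or dendritic-like members, of 813 genes 16.2% were at least 2-fold higher in ConA+FICZ and 5.78% lower, with a median log2 ratio of 0.04. All 4 counted polarization and repair genes were higher (median 4.79). Of the Fc and pattern receptors 8 of 10 counted genes were higher and 0 lower (median 2.60), of the lysosome genes 8 of 14 and 0 (median 1.32), and of the chemokines 5 of 9 and 2. *Cxcl2* had a ratio of 3.69 and *Lyz2* of 2.37. In the monocyte-like members without the cells that joined the *Clec10a* and MHC class II cluster, ConA+TCDD was 1 cell. There the ratios were 0.46 (-0.21 to 1.23) for *Cxcl2* and 2.24 (0.88 to 4.12) for *Lyz2*. Over the monocyte or dendritic-like members, MHC class II genes lay the other way from these lists, with 5 of 7 lower and 0 higher (median -1.19). Over all members 1 of 7 was higher and 0 lower (median -0.11). The share of monocyte-like cells differed between the libraries as these lists did, and its part was not tested.

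Conventional dendritic-like members (cluster 3) held *Cd74* and *H2-Aa* at levels within 2-fold of each other in all libraries. *Cd74* was at 31364 CPM in Naïve, 32959 in ConA+Veh, 27730 in ConA+TCDD and 32303 in ConA+FICZ, and *H2-Aa* was at 7152, 10004, 5937 and 9892 CPM. Of 7 counted MHC class II genes 0 passed 2-fold in ConA+Veh over Naïve. The genes of the rule differed in which subtype they mark. *Xcr1* (chromosome 9, 123852315 to 123862029) had 13 UMIs in Naïve, 26 in ConA+Veh, 12 in ConA+TCDD and 0 in ConA+FICZ, and *Clec9a*, a cDC1 receptor for dead cells that the rule did not use, had 17, 11, 12 and 1. *Cd209a*, a lectin of cDC2 and monocyte-derived cells (chromosome 8, 3743395 to 3748984), had 58, 1, 0 and 0 UMIs. Over all members *Cd209a* was in 13 cells of Naïve, 1 of ConA+Veh and none of the others. *Cst3*, cystatin C, a gene of the rule, was at 10673, 21462, 16500 and 1929 CPM, lowest in ConA+FICZ. In the finer clustering, cells of cluster 3 led by cDC1 genes numbered 13, 7, 4 and 1 and those in the *Clec10a* and MHC class II cluster 6, 3, 0 and 6.

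In these dendritic-like members several interferon-induced genes were lower in Naïve than in each ConA library, though only ConA+Veh had enough cells for a count over the list. *Isg15* was at 120 CPM in Naïve, 1549 in ConA+Veh, 1064 in ConA+TCDD and 1437 in ConA+FICZ, and the log2 ratio of ConA+Veh over Naïve was 3.69 (2.88 to 4.63). *Ly6a* was at 73.7, 3242, 2449 and 5295 CPM, a ratio of 5.46 (4.46 to 6.68). *Irf7*, the factor that amplifies the interferon response, was at 194, 956, 841 and 739 CPM, and *Zbp1* at 36.9, 210, 421 and 205 CPM. For each of these 4 genes the 3 ConA libraries lay above Naïve. *Ifi205*, an interferon-induced gene that is also a cDC1 marker, was at 147, 1291, 1212 and 616 CPM. Some genes of this kind came from single cells. In ConA+Veh 39 of the 40 UMIs of *Ifit1*, 40 of 40 of *Ifit3* and 75 of 77 of *Cxcl10*, a chemokine for T cells, were in 1 cell each. Of 4 counted type I interferon-stimulated genes 3 were at least 2-fold higher and 0 lower in ConA+Veh over Naïve, against 12.5% higher and 6.62% lower over 544 genes.

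*Fos* was at 1005 CPM in conventional dendritic-like members of Naïve, 258 in ConA+Veh, 124 in ConA+TCDD and 739 in ConA+FICZ, and *Jun* was at 590, 38.3, 49 and 328 CPM. For both genes Naïve was highest and ConA+FICZ came next. Against Naïve, ConA+Veh stood at -1.96 (-2.63 to -1.34) for *Fos* and at -3.95 (-5.87 to -2.52) for *Jun* on the log2 scale. Of 10 counted immediate early genes 3 were at least 2-fold lower and 1 higher. Of the metallothionein and oxidative stress list 4 of 10 genes could be counted, and 3 were at least 2-fold higher in ConA+Veh and 0 lower. They were *Gclm*, a subunit of the enzyme that makes glutathione, at 1.76, *Prdx1* at 1.84 and *Txn1*, thioredoxin, at 2.02. *Cxcl16*, a chemokine for NKT cells, had a ratio of 3.03 (1.85 to 4.30) in ConA+FICZ over ConA+Veh, from 19 UMIs against 10. Genes of liver endothelium were present in Naïve. The list of 10 endothelial markers summed to 144 UMIs (1327 CPM) in Naïve conventional dendritic-like members, with *Eng*, endoglin, at 44, 1, 0 and 2 UMIs over the 4 libraries and *Fabp4* at 51, 0, 0 and 0 UMIs, each in 3 or 4 of the 19 cells. Their part in the Naïve values was not tested.

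**Figure D5:**
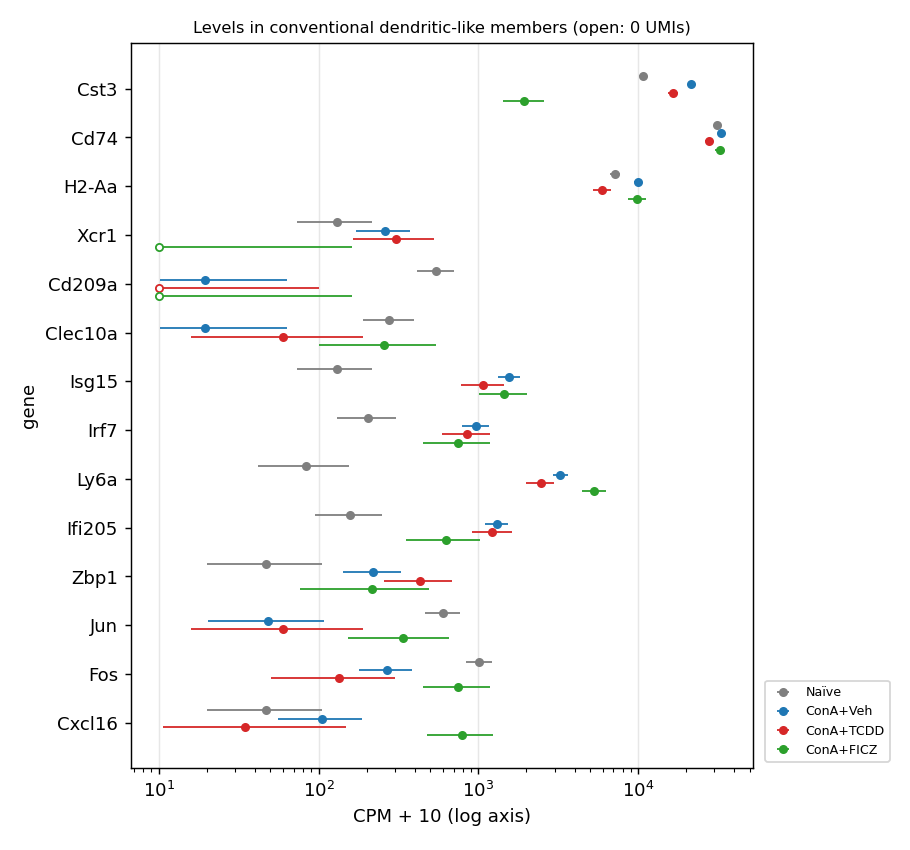
Points give the level in conventional dendritic-like members as CPM with 10 added on a log axis, 1 colour per library, with 95% Poisson bars (open point, 0 UMIs). *Isg15*, *Irf7*, *Ly6a* and *Ifi205* lie lower in Naïve than in the 3 ConA libraries, *Jun* and *Fos* lie highest in Naïve. *Cst3* lies lowest in ConA+FICZ. *Xcr1* had 0 UMIs in ConA+FICZ, where the class held only 24363 UMIs, and is not ranked.

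Mature dendritic-like members (cluster 5) numbered 12 in ConA+Veh and 1, 4 and 2 in Naïve, ConA+TCDD and ConA+FICZ, so only ConA+Veh gave a level that does not rest on a few cells. *Ccr7* (chromosome 11, 99144199 to 99155077) was at 6387 CPM in Naïve, 5462 in ConA+Veh, 4754 in ConA+TCDD and 4384 in ConA+FICZ. *Fscn1*, the actin-bundling protein of their long processes and a gene of the rule (chromosome 5, 142960355 to 142973189), was at 17365, 2568, 1999 and 6027 CPM. *Ccl5*, a chemokine for T cells, was at 2196, 9735, 6158 and 5114 CPM, and *Fabp5*, a fatty acid-binding protein, was at 499, 10521, 8589 and 1461 CPM. In ConA+Veh 11 of 12 cells held *Ccl5* and 10 of 12 held *Fabp5*. *Relb*, an NF-kappa B subunit needed for maturation, was held by 11 of these 12 cells, *Cd274*, the checkpoint ligand PD-L1, by 8, and *Cd40*, a receptor for T cell help, by 3. *Il12b*, a subunit of interleukin-12, had 0 UMIs in them.

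AhR binds its ligand in the cytosol, pairs with ARNT in the nucleus and switches on genes such as *Cyp1a1*, *Ahrr* and *Tiparp*. Over all members *Ahr* itself was at 77.6 CPM in Naïve, 41.2 in ConA+Veh, 18 in ConA+TCDD and 43 in ConA+FICZ. *Cyp1a1* had 0 UMIs in every library, which allows up to 3 UMIs in each, and *Cyp1b1* and *Ahrr* had 1 UMI each, both in Naïve. *Tiparp*, an enzyme of the poly-ADP-ribose polymerase family that restrains AhR (chromosome 3, 65528447 to 65555518), had 20, 30, 41 and 45 UMIs over all members, or 59.7, 56.2, 61.5 and 114 CPM. ConA+FICZ was above the other 3, with a log2 ratio of 1.02 (0.32 to 1.73) over ConA+Veh, whereas ConA+TCDD lay close to Naïve and ConA+Veh. Granulocyte progenitor-like cells held 505510 of the 667133 member UMIs of ConA+TCDD and 236633 of the 533419 of ConA+Veh. In Naïve and ConA+FICZ they held 38468 of 335161 and 194532 of 395282. In the monocyte or dendritic-like members, 0 of 14 AhR pathway and target genes reached 50 UMIs in ConA+TCDD and ConA+Veh together. In monocyte-like members alone the ratio of *Tiparp* for ConA+FICZ over ConA+Veh was 0.85 (-0.32 to 2.19), an interval that includes 0. *Xdh*, xanthine dehydrogenase, was at 125, 45, 22.5 and 98.7 CPM. *Nqo1*, a quinone reductase, had 2, 0, 1 and 1 UMIs. The core of the AhR element, searched as GCGTG on both strands, was in the promoters of 5 of the 8 genes of this list that RefSeq gave, *Tiparp* among them, and in 32.5% of all promoters.

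Over all members, the genes with the highest and lowest ratios were read together with the cluster that held most of their UMIs. For ConA+Veh over Naïve (10.5% of 2599 genes at least 2-fold higher and 9.27% lower), the largest ratios were those of *Gzmb*, *Cdk1*, *Klre1*, *Prf1*, *Gzma*, *Ctsg*, *Tm4sf5* and *Tspan3*. The T or NK-like cluster held 96.1% of the member UMIs of *Gzmb*, which had 4 UMIs in Naïve and 300 in ConA+Veh, and 100% of those of *Klre1* and *Prf1*. *Tm4sf5* and *Tspan3* came mainly from the mature dendritic-like cluster (98.4% and 75.6%). On the lower side were *Cd209a*, *Fn1*, *Apoe*, *Lrp1*, *Lyz2*, *Selenop*, *C3* and *S100a4*. *Lyz2* had a log2 ratio of -3.92 (-4.08 to -3.76) in members and 1.28 in all other cells, and *Fn1* had -4.84 in members and 1.26 in other cells. *Lrp1* and *C3* were also above 0 in other cells (0.36 and 0.66), whereas *Cd209a*, *Selenop*, *S100a4* and *Apoe* were lower there too, at -3.17, -2.44, -2.07 and -1.05.

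For ConA+TCDD over ConA+Veh (1.25% of 3201 genes higher, 4.56% lower), all 8 leading genes, *Ccl24*, *Elane*, *Mpo*, *Ctsg*, *Osm*, *Slc7a11*, *Lmna* and *Clec5a*, had between 82.7% and 100% of their UMIs in the granulocyte progenitor-like cluster. *Elane* had 19 UMIs in ConA+Veh and 388 in ConA+TCDD, 102 of them in 1 cell. *Mpo* had 12 and 216 UMIs. On the lower side stood *Zmynd15*, *Hspa1a*, *Tm4sf5*, *Lst1*, *Cd83*, *Aif1* and *Ifit1*, each with more of its UMIs in a mature dendritic-like, monocyte-like or (*Ifit1*) conventional dendritic-like cluster than in any other. MHC class II genes were lower in 5 of 8 over all members (median -1.28), but in 0 of 8 over the monocyte or dendritic-like ones. For ConA+FICZ over ConA+Veh (4.53% of 2739 genes higher, 3.61% lower), *Vcan*, *Ccl7*, *Cxcl3*, *Ccl2*, *Cxcl2*, *Fn1* and *F10* were among the leading genes, and 74.7% to 100% of their UMIs in the 2 libraries were in cluster 0. *Tm4sf5*, *Ccr7*, *Cd83*, *Zmynd15*, *Ube2c*, *Tmem176b*, *Fabp5* and *Hist1h1e* were lowest. *Ccr7* had 303 UMIs in ConA+Veh and 25 in ConA+FICZ, 94.2% of them in the mature dendritic-like cluster.

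Shares of cells with a UMI were compared in cells thinned to 1000 UMIs, since depth differed. Cells with fewer were left out, 1 member each in ConA+TCDD and ConA+FICZ and 21, 19, 15 and 8 T-type cells, so that the shares are over 71, 59, 40 and 48 members. Before this step, monocyte or dendritic-like cells made up 94.4%, 61.0%, 29.3% and 71.4% of the members. The part of this mixture in the shares was not tested. *Lyz2* was then in 73.2% of members in Naïve (61.4% to 83.1%), 18.6% in ConA+Veh (9.69% to 30.9%), 25% in ConA+TCDD (12.7% to 41.2%) and 56.2% in ConA+FICZ (41.2% to 70.5%); unthinned it was in 84.5%, 42.4%, 46.3% and 71.4%. *Cxcl2* was in 5.63%, 11.9%, 15% and 41.7% (unthinned 12.7%, 22.0%, 29.3% and 53.1%). Of the genes of the rule, *Csf1r* was in 52.1%, 11.9%, 10.0% and 20.8% of thinned members and *Flt3*, the growth factor receptor of dendritic cells, in 5.63%, 10.2%, 7.50% and 6.25%. T-type cells, which should lack these RNAs, held *Lyz2* in 0.221% to 0.609% and *Cxcl2* in 0% to 1.15% of cells after the same thinning, with median depths of 2719, 6808, 6181.5 and 8063 UMIs.

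The members were last set beside the C1q-positive cells that the rule leaves out, 14 in Naïve, 151 in ConA+Veh, 29 in ConA+TCDD and 159 in ConA+FICZ. *Lyz2* was at 2377, 3169, 2004 and 2596 CPM in them, without the high Naïve value of monocyte-like members. *Cxcl2* was at 1759, 2075, 1990 and 2305 CPM and *Ccl2* at 883, 826, 1274 and 1086 CPM, with ratios of ConA+FICZ over ConA+Veh of 0.15 (0.08 to 0.22) and 0.40 (0.28 to 0.51), against 4.47 and 2.38 in the monocyte-like members. The difference between the 2 kinds of cell was not tested, with 1 library per group.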

How the data were processed

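Liver mononuclear cells of 4 libraries, 1 per group, were sequenced with a 10x Genomics 5′ kit. The authors aligned reads to mm10 and deposited raw UMI counts per gene and cell barcode, made with Cell Ranger 3.0.2 per the file headers; no normalized values were used. The 4 matrices held 31053 genes and 9300 barcodes, all of which were kept, and no doublets were called. Library totals are given with the results. The members and gene lists were chosen with earlier results of these data known.

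For each library and class of cells, the summed counts of a gene were expressed per 1000000 summed counts (CPM). Intervals at the 95% level were exact Poisson (levels), Clopper-Pearson (shares) and conditional binomial (ratios), and cover counting error only; a gene at 0 was given a floor of 3 counts. A gene entered the 2-fold counts when the 2 libraries compared held 50 or more of its UMIs. Members were clustered with leidenalg 0.10.2 (1500 variable genes, UMIs per 10000 on a natural log scale, 20 components, 15 neighbours, resolution 1), and a cluster was named from at least 3 markers. The genes named for all members were the 8 with the highest and the 8 with the lowest ratio in each of the first 3 comparisons, whose interval excluded 0 or, for *Ctsg*, *Tm4sf5* and *Ccl7*, which had no UMI in 1 library, whose ratio was set by the floor, leaving out immunoglobulin and T cell receptor segments, ribosomal, mitochondrial and predicted genes; other named genes belong to the lists or the rule, and some genes that these rules name are not reported here. T-type cells held at least 2 UMIs of the *Cd3* genes. Fold changes were checked on simulated counts. The scripts used scikit-learn 1.9.0 for components, scipy 1.17.1 for intervals, and pandas 2.3.3 with numpy 2.4.6 under Python 3.11.15. Other rule thresholds, filters, normalizations and clusterings were tried as alternatives. Promoters came from RefSeq GRCm38.p6.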

Additional observations from a re-analysis of the deposited data

How the results depend on the processing

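Values in this paragraph are log2 ratios of the members' share of cells, or numbers of genes past 2-fold, over all members, and the cause of each change was not tested. The ratio of ConA+Veh over Naïve was -0.68; it was -1.27 with 4 or more markers, -0.012 with 2 or more, -1.31 without the progenitor-like and T or NK-like clusters and 0.37, the opposite sign, without the C1q condition. Without those clusters and without the C1q condition, in that order, the ratio was -1.02 and -0.72 for ConA+TCDD over ConA+Veh and 1.10 and 0.92 for ConA+FICZ over ConA+TCDD. Both of these alternatives were chosen after seeing the data.

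Weighting clusters equally needed 10 cells of a cluster in both libraries, which left 1 cluster in all comparisons but ConA+FICZ over ConA+Veh, so its values describe the clusters named and no weighting took place in the other 3. For ConA+Veh over Naïve 515 genes were past 2-fold, against 319 with 4 or more markers, 883 with 2 or more, 318 without the clusters of other lineages, 797 by the mean per 10000 UMIs, 1497 without depth correction, 104 in cluster 3 alone, 1322 with a filter of 20 UMIs and 3179 without a filter. For ConA+TCDD over ConA+Veh the count was 186, against 87 with 4 or more markers, 120 with stricter exclusions, 58 without the clusters, 327 per 10000 UMIs, 1267 without depth correction, 76 in cluster 1 alone, 585 with 20 UMIs and 2046 without a filter. For ConA+FICZ over ConA+Veh it was 223, against 348 per 10000 UMIs, 114 with clusters 0 and 1 weighted equally, 712 with 20 UMIs and 2388 without a filter. For ConA+FICZ over ConA+TCDD it was 286, against 134 with 4 or more markers, 164 with stricter exclusions, 179 without the clusters, 549 per 10000 UMIs, 1558 without depth correction, 91 in cluster 1 alone, 837 with 20 UMIs and 2356 without a filter.

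The percentage of these genes that were higher was 53.2%, 21.5%, 55.6% and 74.1% in the 4 comparisons. It was 95.7%, 97.9%, 38.1% and 2.76% without depth correction and 65.4%, 60.5%, 70.2% and 37.4% in cluster 3, cluster 1, clusters 0 and 1, and cluster 1. With 4 or more markers it was 43.7% for the second, without a filter 37.3% for the first and 36.9% for the second, and without the members of highest UMI counts 62.4% for the fourth comparison. Per 10000 UMIs it was 65.2% for the first, 44.0% for the second and 55.6% for the fourth comparison, and with totals that left out ribosomal and mitochondrial genes it was 33.2% for the second and 63.3% for the fourth. *Ifit1* in ConA+TCDD over ConA+Veh was -2.73 over all members and 1.71 in cluster 1, granulocyte progenitor-like, and *Fabp5* in ConA+FICZ over ConA+Veh was -2.42 and, in clusters 0 and 1, 0.36; the dendritic-like clusters are not in these values. Over all alternatives of the named genes, 426 ratios moved by less than their interval, 125 moved by more, 2 changed sign and 23 could not be given.

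Monocyte-like cells were 2.44% of ConA+TCDD members at Leiden resolution 2, where 3 of its 4 monocyte-like cells joined a dendritic-like cluster; the levels without such cells, given with the results, were added after seeing the data. *Csf1r* was in 31.0%, 0% and 4.08% of members of Naïve, ConA+TCDD and ConA+FICZ when thinned to 500 UMIs, and in 74.6%, 39.0%, 46.3% and 65.3% of the 4 libraries when not thinned, while *Flt3* was in 16.9%, 37.3% and 31.7% of Naïve, ConA+Veh and ConA+TCDD when not thinned. No paired analysis was possible because each group is 1 library, and no library could be left out for the same reason. ConA+TCDD had 12 monocyte or dendritic-like members, against 67, 36 and 35 in Naïve, ConA+Veh and ConA+FICZ.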
